A study of Mus musculus with 12 samples.

Results

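The 10 genes described here are transcripts of inflammatory signalling in murine BM stem and progenitor cells. They are 3 cytokines (Il1b, Tnf and Il6), 5 chemokines (Ccl3, Ccl4, Ccl5, Ccl9 and Cxcl2) and 2 feedback inhibitors of NF-kB (Nfkbia and Tnfaip3). They were chosen by symbol from 56748 counted genes, by a rule that used no values, although earlier results of these data were known. Each symbol matched a single Ensembl identifier. Of the 10, 9 passed the filter on low counts and were tested, and Cxcl2 did not.

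NF-kB is a family of dimeric transcription factors held in the cytoplasm by inhibitor proteins of the IkB family. Signals from IL-1, TNF or Toll-like receptors activate the IKK kinase complex, which marks the inhibitor for destruction and frees the dimer to enter the nucleus. Among the genes that NF-kB then activates are cytokines and chemokines, and also Nfkbia, which encodes the inhibitor IkBalpha, and Tnfaip3, which encodes the ubiquitin-editing enzyme A20 that dampens signalling upstream of IKK. Transcripts of both inhibitors are therefore often read beside the cytokines as the feedback arm of the pathway. In the BM, haemopoietic stem and progenitor cells both respond to inflammatory cytokines and can make some of them.

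The cells carried the SCLtTA and BCR-ABL transgenes (DTG mice, CD45.2). In this model the tetracycline transactivator is driven from an enhancer of the stem cell leukaemia gene, so BCR::ABL1 is off in haemopoietic stem and progenitor cells while tetracycline (TET) is given. Frozen BM pooled from several DTG mice of both sexes was transplanted into irradiated B6.SJL recipients (CD45.1) aged 8 to 12 weeks, and all recipients had TET while they engrafted. In the CML 2wk group (BCR::ABL1+, n = 6 libraries) TET was then removed for 2 weeks, and in the CTRL group (BCR::ABL1-, n = 6 libraries) it was continued. Bulk RNA-seq was made from donor CD45.2+ Lin-Sca+Kit+ (LSK) cells of the BM, the sorted fraction that holds stem cells and the earliest progenitors, and no other agent was given to either group. The labels list male for every CTRL library and female for every CML 2wk library, whereas the methods of the study describe recipients of both sexes. As labelled, sex and BCR::ABL1 cannot be told apart here. The same holds for TET itself, which only the CTRL group still had during the last 2 weeks. The labels do not tie each library to a mouse, so p-values measure the spread between these libraries, which may be partly technical.

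Total counts were 22804754 to 41832868 per CTRL library and 16150817 to 25070105 per CML 2wk library. Levels are given as CPM, counts relative to library size, scaled with edgeR's TMM factors. The sorting markers were present in every library, with Kit at 681 to 800.0 CPM in CTRL and 323.1 to 521.7 CPM in CML 2wk, and Ly6a (which encodes Sca-1) at 27.2 to 38.3 and 31.4 to 74.1 CPM. The biological coefficient of variation over all genes was 10.9% among CTRL libraries, 32.4% among CML 2wk libraries and 24.5% without CML 2wk replicate 2. Mitochondrial genes held 0.816% to 1.29% of counts in CTRL and 2.26% to 2.97% in CML 2wk, and the part of this difference in the results was not tested. CML 2wk replicate 2 stood apart. The summed level of 10 stromal and endothelial genes was 2877 CPM in CML 2wk replicate 2 and 594.1 CPM in replicate 4, against 177.3 to 262.7 CPM in the other 10 libraries. Most of the sum in replicate 2 was a single gene, Fn1, whose highest level of 2005 CPM no other library's sum can hold. Library numbers of replicate 6 of both groups lie close together, while replicates 1 to 5 of each group have numbers of their own run. What the numbers stand for is not stated, and values of replicate 6 are given for Il6, Tnf, Ccl5, Ccl9, Nfkbia, Tnfaip3 and Tlr3.

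Of all 18438 genes tested, 59.5% were called changed (adjusted p under 0.05 by the quasi-likelihood test of edgeR, adjusted by Benjamini-Hochberg), 30.6% higher and 29.0% lower in BCR::ABL1+ cells. Among the 9 tested cytokine, chemokine and feedback genes, 2 were called higher (Il6 and Ccl9), 1 was called lower (Nfkbia) and 6 were not called. Il6 and Ccl9 were also the only ones of the 9 whose CML 2wk and CTRL libraries did not overlap. Over all genes tested, 17.0% did not overlap with CML 2wk higher and 20.6% with CML 2wk lower. The median log2 fold change of the 9 genes was 0.17, beside 0.07 over all genes tested. The 9 genes did not move in 1 direction, and each is described in turn.

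**Figure D1:**
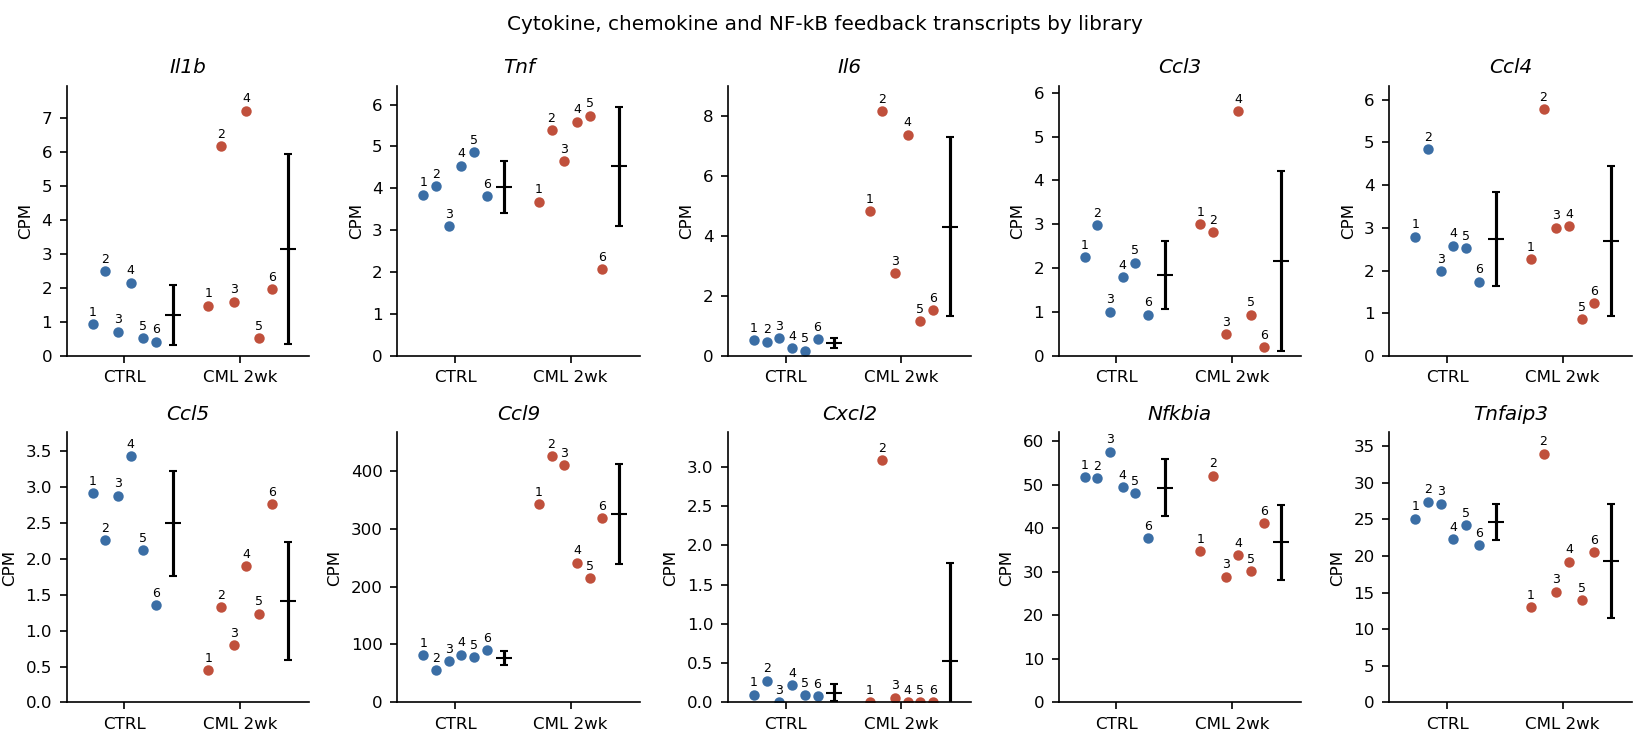
Level of each of the 10 genes in CPM (vertical axis, linear and different in each panel) in the 6 CTRL libraries (blue) and the 6 CML 2wk libraries (red), with the replicate number above each point and the mean ± SD in black (the lower end of the Cxcl2 bar is cut at 0). All 6 CML 2wk points lie above all CTRL points for Il6 and Ccl9, and CML 2wk replicate 2 is the highest of its group for Il6, Ccl4, Ccl9, Cxcl2, Nfkbia and Tnfaip3.

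The sequence before the start site is shown for the 3 genes that were called and for Tnfaip3, the second feedback gene. RefSeq promoter windows (build GRCm38.p6, 250 bases before to 50 after the start) matched 8 of the 10 genes by symbol: Il1b, Tnf, Il6, Ccl3, Ccl9, Cxcl2, Nfkbia and Tnfaip3, the last with 2 start sites. Each line below gives the 250 bases before the start, 5′ to 3′ on the strand of the gene, with matches to the NF-kB consensus in capitals. Il6 is on the + strand at chr5:30012864-30013113, Ccl9 on the - strand at chr11:83578637-83578886, Nfkbia on the - strand at chr12:55492648-55492897 and the outer start of Tnfaip3 on the - strand at chr10:19015411-19015660.
Il6: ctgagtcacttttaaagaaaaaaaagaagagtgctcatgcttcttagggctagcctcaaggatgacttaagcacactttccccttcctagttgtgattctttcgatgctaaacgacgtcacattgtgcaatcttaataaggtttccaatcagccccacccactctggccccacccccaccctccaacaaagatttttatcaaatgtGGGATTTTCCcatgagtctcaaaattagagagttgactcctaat
Ccl9: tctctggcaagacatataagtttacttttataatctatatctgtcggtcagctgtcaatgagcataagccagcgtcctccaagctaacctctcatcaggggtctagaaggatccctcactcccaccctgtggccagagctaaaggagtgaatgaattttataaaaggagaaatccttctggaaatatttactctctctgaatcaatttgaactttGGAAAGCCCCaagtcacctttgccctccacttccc
Nfkbia: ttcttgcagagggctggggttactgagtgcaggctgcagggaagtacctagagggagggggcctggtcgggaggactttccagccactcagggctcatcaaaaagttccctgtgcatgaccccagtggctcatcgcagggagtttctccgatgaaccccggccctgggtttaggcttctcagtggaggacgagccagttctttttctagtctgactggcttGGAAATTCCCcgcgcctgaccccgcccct
Tnfaip3: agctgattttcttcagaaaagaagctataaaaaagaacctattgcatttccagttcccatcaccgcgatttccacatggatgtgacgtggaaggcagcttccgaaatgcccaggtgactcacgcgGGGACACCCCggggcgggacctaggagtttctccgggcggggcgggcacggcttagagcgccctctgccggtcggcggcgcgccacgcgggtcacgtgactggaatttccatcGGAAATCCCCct

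Windows were searched on both strands for the NF-kB consensus, the AP-1 site TGANTCA and TATAAA, which 8.46%, 7.81% and 13.6% of all 32851 RefSeq promoter windows hold. The NF-kB consensus was found for 5 of the 8 genes. Its match is GGGATTTTCC in Il6, 44 to 35 bases before the start, GGAAAGCCCC in Ccl9, 35 to 26 bases before it, and GGAAATTCCC in Nfkbia, 29 to 20 bases before it. In Tnfaip3 the outer start has 2 matches, GGGACACCCC at 125 to 116 and GGAAATCCCC at 12 to 3 bases before it, and its second start has none. In Cxcl2 the matches GGGAATTTCC and GGAATTTCCC overlap and lie on opposite strands. Il1b, Tnf and Ccl3 had no match in this window. The AP-1 site was found for 3 genes (Il6, Ccl9 and Tnfaip3) and TATAAA for 5 (Il1b, Tnf, Ccl9, Nfkbia and Tnfaip3), with a pair of overlapping TATAAA matches in Ccl9. The 3 genes called changed all carried the NF-kB consensus, and 2 of them rose while the third fell. These matches describe the letters of the windows and are not evidence of binding.

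Of the cytokines, Il6 was the gene with the largest change. Il6 encodes interleukin-6, a cytokine that acts on myeloid progenitors and on the acute phase response. Its transcript was scarce in BCR::ABL1- cells, with as few as 4 counts in a library, at 0.177 CPM in the lowest, 0.495 at the median and 0.598 in the highest CTRL library. In BCR::ABL1+ cells it was at 1.16 CPM in the lowest, 3.79 at the median and 8.17 in the highest library. Every CML 2wk library was thus above every CTRL library, with replicates 2 (8.17 CPM) and 4 (7.38 CPM) the highest and replicates 5 (1.16 CPM) and 6 (1.53 CPM) the lowest. The log2 fold change was 3.30 (SE 0.496, 9.83-fold, edgeR adjusted p = 4.84e-05). Without CML 2wk replicates 2 and 4, the highest for Il6 and for the stromal sum, it was 2.52 (SE 0.405, 5.75-fold, edgeR adjusted p = 8.91e-05). The call was kept and the size was 1.71 times smaller. This omission was chosen after the data were seen, here and for Il1b, Ccl3, Ccl4, Cd14 and Ppbp. Both libraries also had the highest basophil and mast cell sums (2691 and 1168 CPM), and the part of either sum was not tested. In replicate 6 alone, Il6 was at 0.566 CPM in CTRL and 1.53 CPM in CML 2wk.

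Il1b encodes interleukin-1 beta, a precursor protein that caspase-1 cleaves to its active form. Il1b was at 0.415 to 2.50 CPM in CTRL (median 0.821) and at 0.525 to 7.22 CPM in CML 2wk (median 1.78). Only CML 2wk replicates 4 (7.22 CPM) and 2 (6.16 CPM) were above the CTRL range, and the other 4 lay inside it. The log2 fold change of 1.37 (SE 0.598) did not pass the threshold (edgeR adjusted p = 0.0606). Without those 2 libraries it was 0.15 (SE 0.501, edgeR adjusted p = 0.811). That omission was chosen after the data were seen and takes out the 2 highest libraries. A smaller value was bound to follow, so this fit tests nothing about Il1b. The call depended on the fit, since DESeq2 (adjusted p = 0.0251) and edgeR without CML 2wk replicate 5 (adjusted p = 0.0226), without CTRL replicate 2 (adjusted p = 0.0344) or without CTRL replicate 4 (adjusted p = 0.0459) put it past the threshold. Il1bos, an antisense gene that overlaps exons of Il1b, had 1 to 19 counts per library, against 11 to 144 for Il1b, and reads from the antisense strand cannot be told apart without a stated strand setting.

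Tnf, which encodes tumour necrosis factor, a strong activator of NF-kB, changed little. It was at 3.10 to 4.87 CPM in CTRL (median 3.94) and 2.07 to 5.74 CPM in CML 2wk (median 5.02), and the groups overlapped on both sides. The log2 fold change was 0.17 (SE 0.221, edgeR adjusted p = 0.536). The lowest library of all was CML 2wk replicate 6 at 2.07 CPM, beside 3.81 CPM in CTRL replicate 6.

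Among the chemokines, Ccl9 was the gene that rose. Ccl9 encodes a CC chemokine of myeloid cells that acts through the receptor CCR1. Its level was 55.9 CPM in the lowest, 80.2 at the median and 90.6 in the highest CTRL library, and 214 CPM in the lowest, 330 at the median and 425 in the highest CML 2wk library. All 6 CML 2wk libraries were above the CTRL range, with replicates 5 (214 CPM) and 4 (241 CPM) the lowest and replicates 2 (425 CPM) and 3 (410 CPM) the highest. The log2 fold change was 2.08 (SE 0.168, 4.24-fold, edgeR adjusted p = 1.69e-07), and over all alternatives it stayed between 1.98 and 2.18. Within replicate 6 the values were 90.6 CPM in CTRL and 318 CPM in CML 2wk.

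Ccl3, Ccl4 and Ccl5 did not pass the test. Ccl3 and Ccl4 encode macrophage inflammatory proteins, which attract myeloid and lymphoid cells, and Ccl5 encodes a chemokine of T cells and platelets. Ccl3 was at 0.943 to 2.97 CPM in CTRL and 0.197 to 5.59 CPM in CML 2wk, with 2 CML 2wk libraries above and 3 below the CTRL range. Its log2 fold change was 0.23 (SE 0.575, edgeR adjusted p = 0.751), and it was -0.70 (SE 0.536, edgeR adjusted p = 0.262) without CML 2wk replicates 2 and 4. Ccl4 was at 1.74 to 4.84 CPM in CTRL and 0.863 to 5.78 CPM in CML 2wk (log2 fold change -0.02, SE 0.390, edgeR adjusted p = 0.962), and without CML 2wk replicates 2 and 4 its log2 fold change was -0.62 (SE 0.352, edgeR adjusted p = 0.133).

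Ccl5 was lower in most BCR::ABL1+ libraries, at 1.36 to 3.43 CPM in CTRL (median 2.57) and 0.453 to 2.76 CPM in CML 2wk (median 1.28). The log2 fold change of -0.82 (SE 0.350) missed the threshold (edgeR adjusted p = 0.0568). Replicate 6 went the other way from the rest, with 1.36 CPM in CTRL, the lowest of its group, and 2.76 CPM in CML 2wk, the highest of its group. Replicates 1 to 5 did not overlap, with 2.13 to 3.43 CPM in CTRL and 0.453 to 1.90 CPM in CML 2wk, and without replicate 6 of both groups the log2 fold change was -1.24 (SE 0.316, edgeR adjusted p = 0.00507). Leaving out CTRL replicate 6 or CML 2wk replicate 6 alone also put Ccl5 past the threshold (edgeR adjusted p = 0.0344 and 0.00916), as did DESeq2 (adjusted p = 0.0375).

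Cxcl2, which encodes a chemokine that attracts neutrophils through CXCR2, had 9 counts or fewer in all but 1 library. Its counts were 0 to 9 in CTRL and 72 in CML 2wk replicate 2, and they were 0 or 1 in the other 5 CML 2wk libraries. At 3.08 CPM, CML 2wk replicate 2 was 1 library far above the rest, and with counts at or under 3 elsewhere in the group neither a test nor a fold change is given.

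Ccl5, Ccl9, Ccl3 and Ccl4 lie in 1 stretch of chromosome 11. In the RefSeq order the protein-coding genes run Ccl5, Ccl9, Ccl6, Ccl3 and Ccl4. Ccl6, the neighbour of Ccl9 and a gene of the pathway lists, encodes another CC chemokine of myeloid cells, and it rose from 6.21 ± 2.58 to 31.3 ± 16.7 CPM (SD, n = 6 per group; log2 fold change 2.32, SE 0.360, edgeR adjusted p = 6.41e-05). The middle pair of this row, Ccl9 and Ccl6, was thus called higher, while Ccl5 on one side and Ccl3 and Ccl4 on the other were not.

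**Figure D2:**
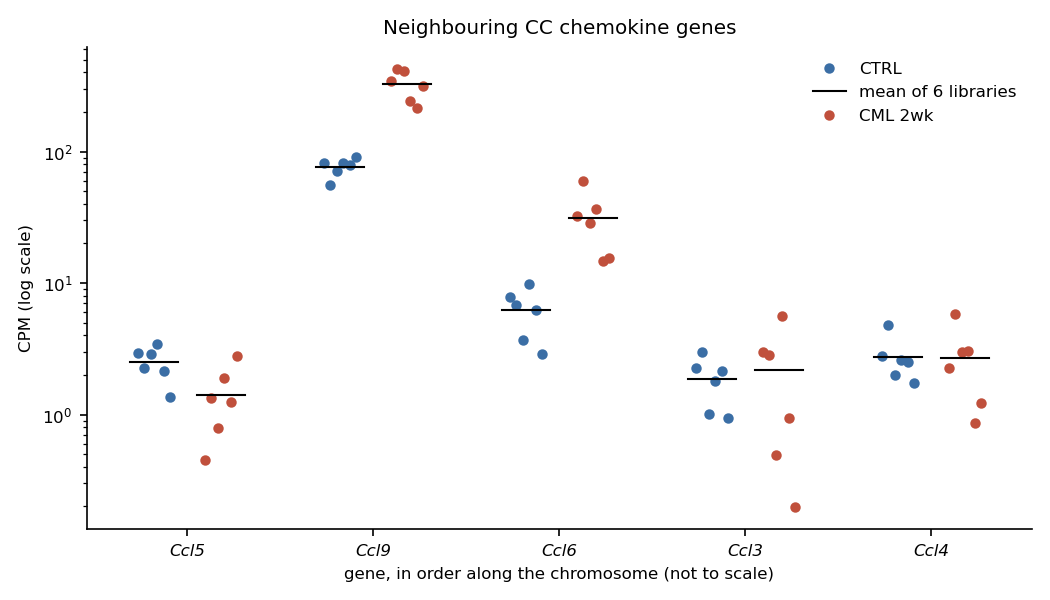
Level in CPM on a log scale (vertical axis) of the 5 neighbouring CC chemokine genes in their order along chromosome 11 (horizontal axis, not to scale), in the 6 CTRL libraries (blue) and the 6 CML 2wk libraries (red), with the mean of each group as a line. The groups separate for Ccl9 (55.9 to 90.6 against 214 to 425 CPM) and Ccl6 (2.87 to 9.79 against 14.6 to 60.2 CPM) and overlap for Ccl5, Ccl3 and Ccl4.

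Of the feedback inhibitors, Nfkbia fell and Tnfaip3 did not pass the test. Nfkbia was at 37.7 CPM in the lowest, 50.5 at the median and 57.6 in the highest CTRL library, and at 28.9, 34.3 and 52.1 CPM in CML 2wk. Of the 6 CML 2wk libraries, 4 were below the CTRL range, and replicates 2 (52.1 CPM) and 6 (41.2 CPM) lay inside it. The log2 fold change was -0.42 (SE 0.136, 1.34-fold lower, edgeR adjusted p = 0.0155), and without CML 2wk replicate 2 it was -0.56 (SE 0.109, edgeR adjusted p = 0.000434). Replicate 6 alone had 37.7 CPM in CTRL and 41.2 CPM in CML 2wk, the opposite order from the group means. The call was kept without replicate 6 of both groups (log2 fold change -0.51, SE 0.138, edgeR adjusted p = 0.00702).

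Tnfaip3 was at 21.5 to 27.4 CPM in CTRL (median 24.6) and 13.0 to 34.0 CPM in CML 2wk (median 17.2). A total of 5 CML 2wk libraries were below the whole CTRL range and 1, replicate 2 at 34.0 CPM, was above it. With all libraries the log2 fold change was -0.35 (SE 0.194, edgeR adjusted p = 0.138). Without CML 2wk replicate 2 it was -0.60 (SE 0.120, edgeR adjusted p = 0.000519), past the threshold, so this library decided the call. In replicate 6, Tnfaip3 was at 21.5 CPM in CTRL and 20.5 CPM in CML 2wk.

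Compared per kilobase of exon (GENCODE vM21 gene models, mean CPM per kb of 6 libraries), the order of the levels in CTRL was Nfkbia (30.6), Ccl9 (25.2), Ccl4 (4.16), Tnfaip3 (3.40), Ccl5 (2.60), Tnf (2.46), Ccl3 (2.41), Il1b (0.632), Il6 (0.178) and Cxcl2 (0.0610). Only the step from Ccl9 to Ccl4 was free of overlap between the libraries of neighbours in that order. In CML 2wk, Ccl9 came first (107 CPM per kb) and Nfkbia second (22.9), and their libraries did not overlap with each other or with the third, Ccl4 (4.09). The next were Ccl3 (2.84), Tnf (2.76), Tnfaip3 (2.67), Il6 (1.77), Il1b (1.66), Ccl5 (1.47) and Cxcl2 (0.253), each overlapping its neighbour. The ranges of Il6 and Il1b overlapped in both groups, and their order within each library was not compared.

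Marker genes of other cells were summed in each library, and no likeness of the sums to the genes above was tested. The summed level of 12 basophil and mast cell genes was 319 to 433.5 CPM in CTRL and 507.9 to 2691 CPM in CML 2wk, highest in replicates 2 and 4, with 8 of the 12 genes called higher and 1 lower, and its most abundant gene, Cpa3, went from 66.8 to 395 CPM. A list of 13 monocyte and macrophage genes summed to 292.7 to 554.9 CPM in CTRL and 475 to 860.9 CPM in CML 2wk, with 3 called higher and 1 lower of 12 tested, and Lyz2, its most abundant gene, at 213 and 178 CPM. The 12 neutrophil genes summed to 2472 to 4854 and 3218 to 8647 CPM (4 higher, 5 lower; Mpo from 1695 to 2692 CPM). The 10 stromal and endothelial genes had 3 of 8 tested called higher, and none of the 8 was free of overlap between the groups. Fn1, the most abundant, averaged 31.2 CPM in CTRL (8.26 to 45.2) and 367 CPM in CML 2wk (1.35 to 2005). The part of these sums in the changes of Il6 and Ccl9 was not tested. In bulk RNA, more or fewer cells of a type and more or less RNA per cell cannot be told apart.

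Of the other marker lists, 1 was higher in sum in every CML 2wk library (T and NK cells) and the rest were lower or overlapped. LSK genes summed to 2771 to 3186 CPM in CTRL and 1459 to 1954 CPM in CML 2wk (9 of 10 called lower; Cd34, the most abundant, 749.6 and 552.7 CPM). Lists of B cells (434.8 to 777.4 and 29.4 to 364.7 CPM; 2 of 9 lower; Ighm 491 and 189 CPM), dendritic cells (868.1 to 1339 and 363.5 to 781 CPM; 8 of 9 lower; Flt3 426 and 257 CPM) and megakaryocytes (335.7 to 420.7 and 104.7 to 269.2 CPM; 6 of 6 tested lower; Itga2b 188 and 117 CPM) were lower in sum, and Gp6 had at most 3 counts in every library. Flt3 is also on the LSK list, and Gata2 is on both the LSK list and the basophil and mast cell list, so these sums are not independent. T and NK cell genes summed to 94.5 to 124.4 CPM in CTRL and 139.3 to 222.3 CPM in CML 2wk (3 higher and 2 lower of 10 tested; Nkg7 82.7 and 121 CPM). Genes of stress during cell handling summed to 268.9 to 1144 CPM in CTRL and 185 to 461.4 CPM in CML 2wk (9 of 14 lower; Jun 111 and 44.9 CPM), and CML 2wk replicate 2, the library with the highest Nfkbia and Tnfaip3 of its group, also had the highest of these sums in its group. Their part in the results was not tested.

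**Figure D3:**
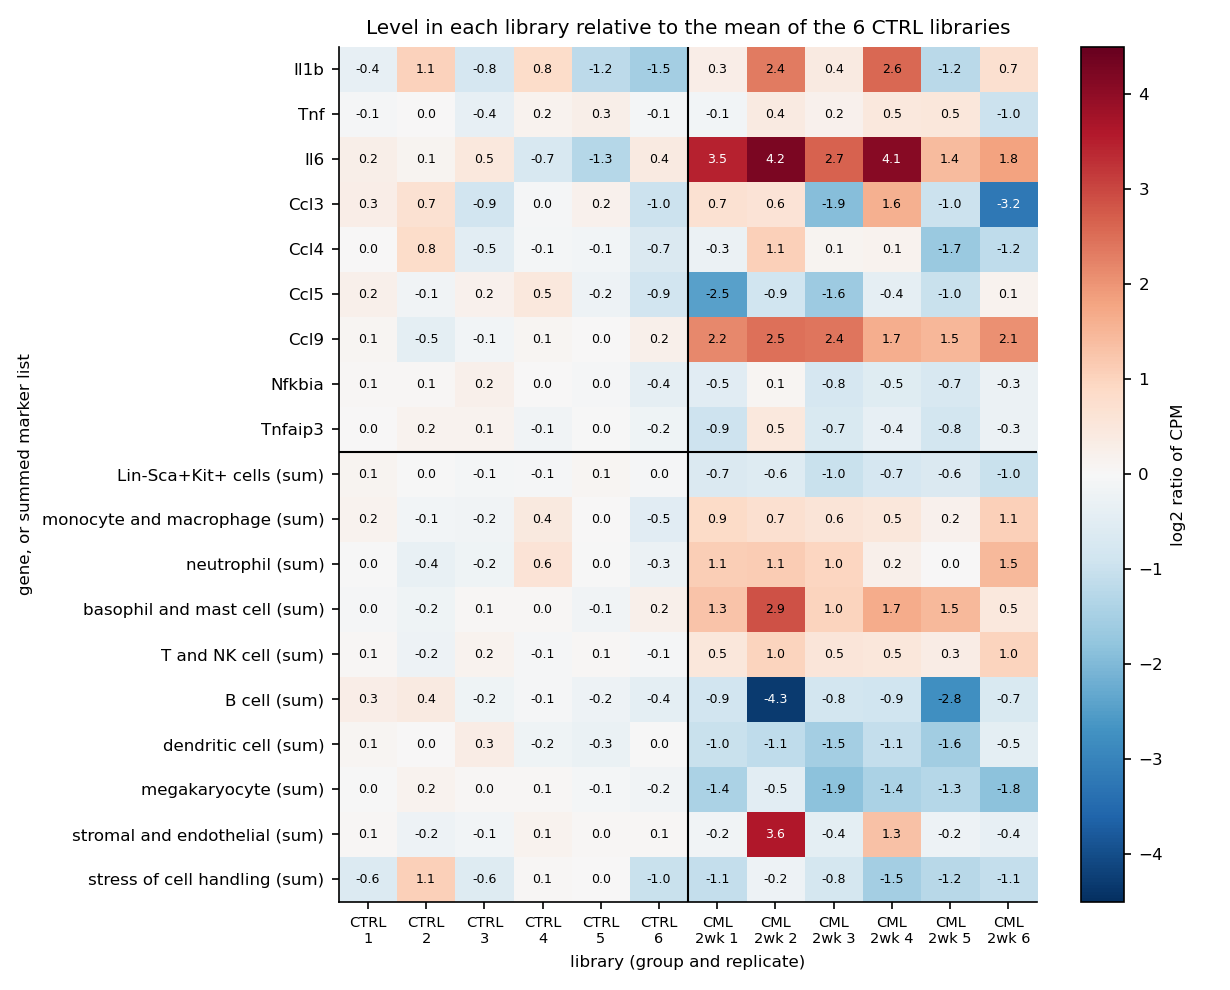
Log2 ratio of the level in each library (columns) to the mean of the 6 CTRL libraries, for 9 of the genes (rows above the line; Cxcl2 is left out because of its zeros) and for the summed CPM of each marker list (rows below the line), with red higher and blue lower. CML 2wk replicates 2 and 4 hold the highest ratios of Il6 (4.2 and 4.1) and Il1b (2.4 and 2.6) and of the stromal sum (3.6 and 1.3).

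The pathway around these genes was followed in 10 lists of 128 genes, of which 106 passed the filter on low counts. Of those 106, 25 were called higher and 47 lower in BCR::ABL1+ cells, beside 30.6% higher and 29.0% lower of all genes, with a median log2 fold change of -0.21. The transcription factor subunits themselves leaned down. Of 5 NF-kB subunit genes, 4 fell and 1, Relb, was not called (log2 fold change -0.43, SE 0.236, edgeR adjusted p = 0.128). Rela, which encodes the transactivating subunit p65, fell from 82.0 ± 3.00 to 42.0 ± 6.80 CPM (SD, n = 6 per group; log2 fold change -0.97, SE 0.0905, edgeR adjusted p = 5.99e-07). Rel, which encodes c-Rel, fell from 85.5 ± 4.15 to 57.6 ± 7.41 CPM (log2 fold change -0.57, SE 0.0784, edgeR adjusted p = 2.10e-05). For both, no CML 2wk library reached the CTRL range.

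In the list of the IKK complex and upstream kinases, 1 of 9 genes was called higher and 5 lower. The 3 genes of the IKK complex itself were not called, namely Chuk (log2 fold change 0.12), Ikbkb (-0.12) and Ikbkg (-0.18), which were chosen after their values were seen. Map3k8, the kinase Tpl2, rose from 11.8 to 16.8 CPM (log2 fold change 0.51, edgeR adjusted p = 0.000410). Tab1, a partner of the kinase TAK1, and Map3k14, the NF-kB-inducing kinase, fell from 34.0 to 22.6 CPM and from 34.3 to 23.4 CPM (log2 fold changes -0.58 and -0.55). Of 15 receptor adaptors, which carry the signal from receptors, 1 was called higher, 6 lower and 8 neither. Myd88, the adaptor of IL-1 and most Toll-like receptors, rose from 33.7 to 45.7 CPM (log2 fold change 0.44), while its partner kinase Irak1 fell from 197 to 108 CPM (log2 fold change -0.87). Ticam1, the adaptor of Tlr3, fell from 17.1 to 10.2 CPM (log2 fold change -0.75).

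Other inhibitors of NF-kB were mixed, with 2 of 14 called higher and 7 lower. Traf3, a negative regulator of the non-canonical pathway, fell from 89.5 to 52.4 CPM (log2 fold change -0.77, edgeR adjusted p = 2.63e-07), and Nfkbid, a nuclear IkB protein, fell from 18.9 to 12.4 CPM (log2 fold change -0.60, edgeR adjusted p = 0.0146). Bcl3, another nuclear IkB protein, and Tax1bp1, a partner of A20, rose from 12.4 to 16.5 CPM and from 424 to 530 CPM (log2 fold changes 0.41 and 0.32), and Bcl3 lost its call in 5 of 22 alternatives, among them those without CTRL replicate 1, 5 or 6 (edgeR adjusted p up to 0.105 in these 5). Nfkbie, which encodes IkBepsilon and was chosen after its values were seen, fell from 32.0 to 21.5 CPM (log2 fold change -0.57, edgeR adjusted p = 0.000118). Nfkbia was therefore not alone among genes of IkB proteins that fell, but these genes were mixed. Bcl3 rose, and Nfkbib (log2 fold change -0.179) and Nfkbiz (-0.009), also chosen after their values were seen, were not called.

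The largest fold change among the tested pathway genes was that of a receptor. Of 14 receptor genes, 11 were tested, with 5 called higher and 3 lower. Ccr1, a receptor for Ccl3, Ccl5 and Ccl9, rose from 2.85 ± 1.48 to 38.9 ± 19.0 CPM (SD, n = 6 per group; log2 fold change 3.74, SE 0.365, 13.4-fold, edgeR adjusted p = 8.33e-07), and its groups did not overlap. Il1r2, a decoy receptor that binds IL-1 without signalling, rose from 2.51 to 7.96 CPM (log2 fold change 1.66, edgeR adjusted p = 0.00366), with CML 2wk replicate 2 at 23.1 CPM and a log2 fold change of 0.95 (SE 0.218, edgeR adjusted p = 0.0015) without that library. In contrast Il6ra, the receptor that binds IL-6, fell from 61.2 ± 4.27 to 40.3 ± 4.53 CPM (log2 fold change -0.60, SE 0.0772, edgeR adjusted p = 1.06e-05), and Tnfrsf1b, the second TNF receptor, fell from 80.0 to 61.6 CPM (log2 fold change -0.38). Thus the ligand Il6 rose while its receptor Il6ra fell, and the ligand Ccl9 rose together with its receptor Ccr1.

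Toll-like receptor genes went both ways, with 5 of 13 called higher and 4 lower. Cd14 and Tlr4, which sense bacterial lipopolysaccharide, rose from 0.455 to 2.92 CPM and from 27.1 to 61.8 CPM (log2 fold changes 2.70 and 1.19). Tlr3 and Tlr9, which sense nucleic acids inside the cell, fell from 21.2 to 6.12 CPM and from 7.92 to 2.59 CPM (log2 fold changes -1.79 and -1.61). These were the largest called changes each way, and 4 of the 13 genes were not called. Whether the list divides by what its receptors sense was not tested. The groups overlapped for Tlr3, where CML 2wk replicate 6 was at 20.2 CPM and the other 5 CML 2wk libraries at 1.30 to 9.22 CPM, beside 12.2 to 28.8 CPM in CTRL with replicate 6 the highest. For Tlr3 the log2 fold change was -2.71 (SE 0.459) without CML 2wk replicate 6 and -2.58 (SE 0.480) without replicate 6 of both groups. For Cd14, whose groups also overlapped, it was 1.89 (SE 0.435) without CML 2wk replicates 2 and 4. Factors that destroy or stabilise cytokine mRNA fell in 7 of 9 cases. Zfp36, which encodes tristetraprolin and destabilises transcripts such as that of Tnf, fell from 58.2 to 26.9 CPM (log2 fold change -1.11, edgeR adjusted p = 0.000992), and its relative Zfp36l2 fell from 949 to 499 CPM (log2 fold change -0.93). Zfp36 is also on the list of handling stress genes. Its groups overlapped, CTRL replicate 2 was at 108 CPM, and without that library its log2 fold change was -0.85 (SE 0.168).

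In the processing list, 6 of 9 genes were called higher and 2 lower. Casp4 and Casp1, caspases of the inflammasome, the latter the enzyme that cleaves the IL-1 beta precursor, rose from 25.7 to 45.7 CPM and from 54.2 to 87.0 CPM (log2 fold changes 0.83 and 0.68). Gsdmd, the pore protein that they cut, fell from 60.5 to 40.4 CPM (log2 fold change -0.58), and Adam17, the protease that sheds TNF, fell from 110 to 97.7 CPM (log2 fold change -0.17, edgeR adjusted p = 0.0175, lost in 3 of 22 alternatives).

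Among the other cytokines, 11 of 20 were tested, with 1 called higher and 5 lower. Lif, a cytokine of the IL-6 family, rose from 0.609 to 6.10 CPM (log2 fold change 3.34, SE 0.569, 10.1-fold, edgeR adjusted p = 0.000149), with CML 2wk replicate 2 at 19.1 CPM and a log2 fold change of 2.52 (SE 0.354) without that library. Ltb, which encodes lymphotoxin beta, and Il18 fell from 16.2 to 6.80 CPM and from 7.03 to 3.07 CPM (log2 fold changes -1.25 and -1.20). Of 20 other chemokines, 10 were tested, with 4 called higher and 4 lower. Ccl2, which attracts monocytes, rose from 0.291 to 2.70 CPM (log2 fold change 3.24, 9.46-fold, edgeR adjusted p = 1.30e-05). Pf4 and Ppbp, chemokines of platelets that are also on the megakaryocyte list, fell from 41.7 to 5.20 CPM and from 1.15 to 0.165 CPM (log2 fold changes -2.99 and -2.76), and without CML 2wk replicates 2 and 4 that of Ppbp was -3.45 (SE 0.533).

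**Figure D4:**
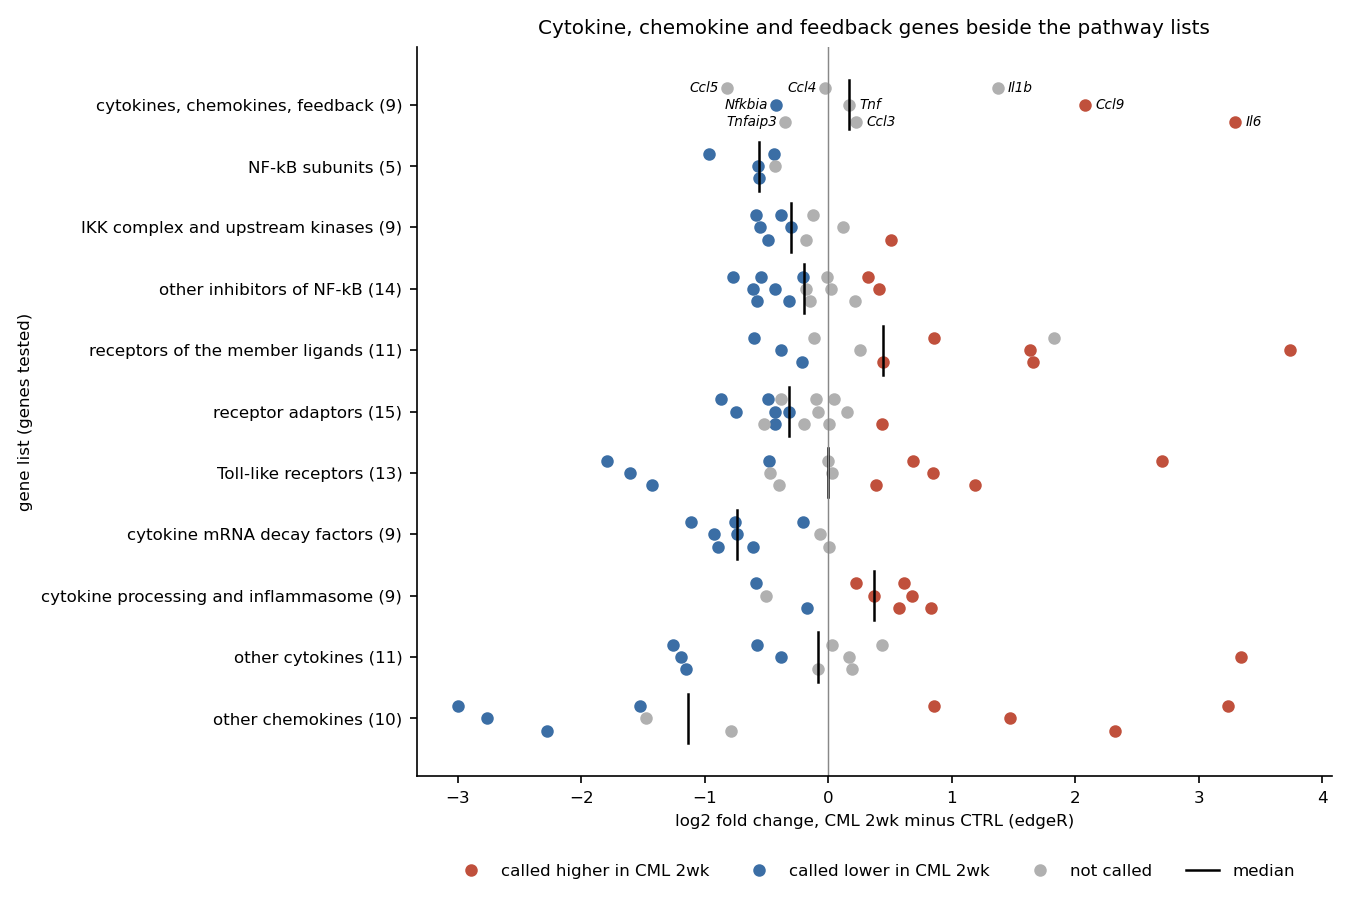
Log2 fold change, CML 2wk minus CTRL, from edgeR (horizontal axis) of each tested gene, with 1 row per list, the number of genes tested in brackets and the median as a black line. Red points were called higher, blue points lower and grey points neither. Of the 9 named genes in the top row, Il6 and Ccl9 are called higher and Nfkbia lower, and 4 of the 5 NF-kB subunits are called lower.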

How the data were processed

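Bulk RNA-seq was analysed for 12 libraries, 6 CTRL and 6 CML 2wk. The files that the authors deposited, 1 per library, hold counts of reads on Ensembl genes without normalization. The submitters' processing notes name FastQC 0.11.9, fastp 0.23.2, STAR 2.7.10a, featureCounts 2.0.1 and DESeq2 1.36.0 with mm39, whereas the methods of the study name Trim Galore!, HISAT2, featureCounts and a human build for bulk RNA-seq. The annotation release, the use of strand and the handling of multimapping reads are not given in the sources used here, so genes with close paralogs or antisense partners are uncertain. Identifiers were matched to symbols for 52073 of 56748 genes, and 0 entries named no gene.

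Groups and replicate numbers were taken from the sample labels. edgeR 4.0.16 (R 4.3.3, limma 3.58.1) fitted all genes with TMM factors, filterByExpr and a quasi-likelihood test, adjusted over 18438 genes. DESeq2 1.42.0 was an alternative. SE is the log2 fold change divided by the root of the F statistic. Of changes planted in simulated data, edgeR called 67 of 94 genes at a log2 fold change of 1 and 95 of 97 at 2, and 15 of 18008 unchanged genes. The simulation changed only 200 genes and gave both groups the same spread for each gene. In these data 59.5% of genes were called, and the coefficient of variation was 10.9% in CTRL and 32.4% in CML 2wk. The simulated counts therefore do not give the power or error rate of the calls made here. Depth limits genes under about 1 CPM, where a library holds few counts (3 counts are 0.0717 to 0.186 CPM), and intervals from counts would cover counting error only. No library pair was within sampling noise (lowest chi-square per degree of freedom 3.78).

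Other genes were named by a rule, the 2 largest changes each way in each pathway list among called genes of at least 1 CPM in a group, and each marker list by its sums and most abundant gene. Nfkbie, Nfkbib, Nfkbiz, Relb, Chuk, Ikbkb and Ikbkg were chosen after their values were seen. The genes and lists were chosen with earlier results of these data known. Motifs were searched in RefSeq windows of GRCm38.p6, 300 bases each, with no test. Alternatives were other size factors, DESeq2, filters, robust fitting, a replicate block, a prior count of 2 and leaving out libraries. Leaving out CML 2wk replicates 2 and 4 together was chosen after seeing the data. Tables and plots were made with Python 3.11.15, pandas 2.3.3, numpy 2.4.6 and matplotlib 3.10.9.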

Additional observations from a re-analysis of the deposited data

Results flagged for a closer look

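A total of 106 sets of 6 libraries were examined (each gene named by rule and each marker sum, in each group). In 14, the gap of a library to the nearest other passed Dixon's 95% limit. For independent sets of normal values, about 1 in 20 sets, or 5.3, would pass. These sets share libraries and some genes, and several hold values near the floor, so 14 against 5.3 is not a test. CML 2wk replicate 2 accounted for 7 of the 14. It was the high library for Cxcl2 (3.08 CPM, next 0.0613), Tnfaip3 (34.0, next 20.5), Il1r2 (23.1, next 7.08) and Lif (19.1, next 4.99), and for the summed basophil and mast cell (2690, next 1170), megakaryocyte (269, next 155) and stromal and endothelial lists (2880, next 594).

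The other 7 were spread over several libraries. In CTRL, replicate 2 was high for Ccl4 (4.84 CPM, next 2.79) and for the handling stress sum (1140, next 559), and replicate 4 for Ccr1 (5.65, next 2.87) and the neutrophil sum (4850, next 3120). In CML 2wk, replicate 5 was high for Tab1 (26.1, next 22.7), replicate 6 for Casp4 (62.2, next 46.7) and replicate 1 for Adam17 (112.0, next 98.5).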

How the results depend on the processing

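Over 22 alternatives, Il6 (log2 fold change 2.52 to 3.56) and Ccl9 (1.98 to 2.18) stayed called higher and Nfkbia (-0.56 to -0.35) called lower. The number of the 10 genes called lower was 1 with all libraries and 2 with DESeq2, without replicate 6 of both groups, and without CML 2wk replicates 2 and 4, and between 1 and 2 when each replicate was left out in turn. The added gene was Ccl5 with DESeq2 and whenever a replicate 6 was left out, and Tnfaip3 without CML 2wk replicate 2. The number called higher was 2 or 3, the third being Il1b. In the pathway lists 21 to 29 genes were called higher and 43 to 57 lower, and 31 of 33 genes named by rule kept their call in each alternative that gave them a value (Cd14 and Ppbp were not tested with at least 1 CPM in 6 libraries). With the replicate block Tlr3 was at -2.46 (SE 0.522).

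With the replicate block, a paired fit, 3 genes were called higher and 1 lower, and in the pathway lists 22 higher and 49 lower. Il1b was called (log2 fold change 1.22, SE 0.296, edgeR adjusted p = 0.00546). Deviations of same-numbered libraries were correlated at -0.125 to 0.068, so the numbers do not pair them. No called gene reversed. Cxcl2 has no value in these fits, and depth limits what can be said of it. The causes of these differences were not tested.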

Other observations

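Several cytokine and chemokine genes that did not pass the filter on low counts had their counts in few libraries. Of 22 pathway genes that were not tested, 9 had their highest count in CML 2wk replicate 2 and 1, Il3, had 0 counts in every library. The share over all untested genes was not taken, so this number does not set the pathway genes apart. The filter itself removes genes with counts in few libraries, and the counts below are not scaled for depth. The genes named here were chosen after their values were seen. Il1a, the second IL-1 cytokine, had 445 counts in CML 2wk replicate 2, at most 45 in the other CML 2wk libraries and at most 12 in CTRL. Csf2, which encodes GM-CSF, had 58 counts in that library, at most 5 in the others of its group and at most 1 in CTRL. The neutrophil chemokines Cxcl5 (160 counts, at most 68 and 4) and Cxcl3 (50 counts, at most 2 and 6) and the monocyte chemokine Ccl7 (54 counts, at most 5 and 1) had the same library highest. Ccl8 (83 counts), Ccl24 (41 counts) and Ccl17 (31 counts) were instead highest in CML 2wk replicate 6, the library with the highest summed monocyte and macrophage genes (860.9 CPM) of all 12. Ccr3, an eotaxin receptor, had up to 47 counts in CTRL and at most 4 in CML 2wk.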
